A study of Mus musculus with 12 samples.

Results

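Genipin was compared with vehicle in activated mouse CD8 T cells, using the 3 libraries titled as genipin treatment of Ucp2-wildtype cells and the 3 titled as their vehicle treatment, 6 of the 12 libraries in the series. Genipin is a plant-derived compound widely used as an inhibitor of Ucp2, a carrier of the inner mitochondrial membrane, and the vehicle was culture medium. The pmel-1 strain supplied the CD8 T cells for every library. Its transgenic receptor binds a gp100 peptide, gp100 being a protein of melanocytes, and Ucp2 was wildtype throughout. Cells were stimulated either with peptide at 1 µM or with plate-bound anti-CD3 at 2 µg/ml plus soluble anti-CD28 at 1 µg/ml, and the labels do not say which route these libraries had. Culture lasted 4 days, with 10 ng/ml of IL-2 in the medium. The other 6 libraries were 3 with genipin plus N-acetylcysteine (NAC, a thiol antioxidant) and 3 with NAC alone. The labels give no genipin dose with a unit (the deposited names of the genipin files carry a bare number), and they do not say whether replicates came from separate mice or cultures, so the p-values reflect no more than the variation among these libraries, which may be technical.

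An activated CD8 T cell leaves quiescence, takes up IL-2 through its high-affinity receptor, divides and builds a set of surface receptors for costimulation, adhesion and migration. Transcription factors of the Ikaros, NFAT, NF-kappaB, IRF and nuclear receptor families set which of these genes are transcribed. Long noncoding transcripts are part of the same response, and some of them are precursors from which microRNAs or small nucleolar RNAs are cut.

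The libraries held between 22298685 and 29150867 expected counts each. Over all genes, log2 values of replicates correlated between 0.997 and 0.9978, and the chi-square per degree of freedom of replicate pairs lay between 2.18 and 2.89, so no pair agreed within counting noise. Markers of CD8 T cells summed to 4738 to 4862 CPM (counts scaled to library size with TMM factors) with vehicle and 4781 to 4866 with genipin, whereas the neutrophil and erythroid lists stayed under 1 CPM. A B cell list, mostly Ighm, summed to 42.74 to 43.93 CPM with vehicle and 60.7 to 65.37 with genipin. A CD4 and regulatory T cell list, mostly Zbtb7b, summed to 39.92 to 43.49 and 38.63 to 42.17 CPM. A gamma delta T cell list summed to 7.137 to 7.963 and 8.307 to 9.638 CPM. Mitochondrial RNA made up 1.594% to 1.643% of counts with vehicle and 2.06% to 2.189% with genipin, and transcripts of ribosomal proteins 14.13% to 14.34% and 11.55% to 11.92%. These shares moved with the treatment, and their part in the results was not tested. In bulk RNA, a smaller number of cells of a type and less RNA per cell cannot be told apart.

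Precursor transcripts of microRNAs changed in both directions, and the mature strands they carry are shown here because their seeds group the 4 hosts that are described next. A seed, bases 2 to 8 in capitals, is the stretch by which a microRNA pairs with its targets. The sequences are from RefSeq on GRCm38.p6, written from the 5′ end. The mature microRNAs themselves were not measured by these libraries.
mmu-miR-22-3p: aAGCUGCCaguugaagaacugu
mmu-miR-155-5p: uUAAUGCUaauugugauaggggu
mmu-miR-15a-5p: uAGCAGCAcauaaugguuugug
mmu-miR-16-5p: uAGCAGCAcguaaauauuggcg
mmu-miR-17-5p: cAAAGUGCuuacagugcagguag
mmu-miR-20a-5p: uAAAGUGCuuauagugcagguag
mmu-miR-18a-5p: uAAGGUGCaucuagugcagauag
mmu-miR-19a-3p: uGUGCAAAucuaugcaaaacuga
mmu-miR-19b-3p: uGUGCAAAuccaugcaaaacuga
mmu-miR-92a-3p: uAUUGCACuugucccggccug

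Of these hosts, that of miR-22 (Mir22hg, chr11:75461539-75466676, whose 3p strand lies at chr11:75463772-75463793) stood at 17.1, 17.7 and 16.8 CPM in the vehicle libraries and 8.74, 8.57 and 9.41 CPM in the genipin libraries, a log2 fold change of -0.95 ± 0.07 (SE, 3 against 3 libraries, edgeR adjusted p = 2.99e-10). All 3 genipin libraries lay below all 3 vehicle libraries. Mir155hg (chr16:84703167-84715245), precursor of miR-155, a microRNA induced by T cell activation, went from 9.84, 10.8 and 10.5 to 6.69, 8.62 and 6.75 CPM, again without overlap (-0.50 ± 0.12, adjusted p = 0.00102). It falls outside the naming rule and was chosen after its values were seen. In the opposite direction, Dleu2 (chr14:61602839-61682373, minus strand), the host of miR-15a and miR-16, which share the seed AGCAGCA, rose from 3.34, 1.67 and 2.86 to 6.30, 6.56 and 5.40 CPM (1.21 ± 0.17, adjusted p = 2.88e-06). Its vehicle library 2 was the lowest of the 6, and the groups did not overlap. Mir17hg (chr14:115042879-115046727), the precursor of the miR-17 to miR-92 cluster with 6 microRNA genes, rose from 6.21, 5.59 and 7.001 to 11.3, 11.4 and 11.2 CPM (0.84 ± 0.10, adjusted p = 4.08e-07). In that cluster miR-17 and miR-20a share the seed AAAGUGC, and miR-19a and miR-19b share GUGCAAA. Of 12 host transcripts annotated, 7 had enough counts to be tested, 3 rose and 3 fell, against 29.9% and 31% of all genes tested.

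Across the transcriptome the difference was broad. Of 13636 genes tested, 8312 were called at an adjusted p under 0.05, which is 61%. Of all genes, 4080 (29.9%) were higher and 4232 (31%) lower in genipin. The family counts below are to be read beside these shares. A change of at least 2-fold was called for 1336 genes (9.8%), of which 424 rose (3.11%) and 912 fell (6.69%). The median log2 fold change of all genes was -0.01, a value that the TMM scaling holds near 0. CPM of the 2 groups did not overlap for 66.7% of genes, 33% with genipin above vehicle and 33.7% below. Values in parentheses are log2 fold changes ± SE of genipin minus vehicle, and "rose" and "fell" are used for called genes.

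**Figure D1:**
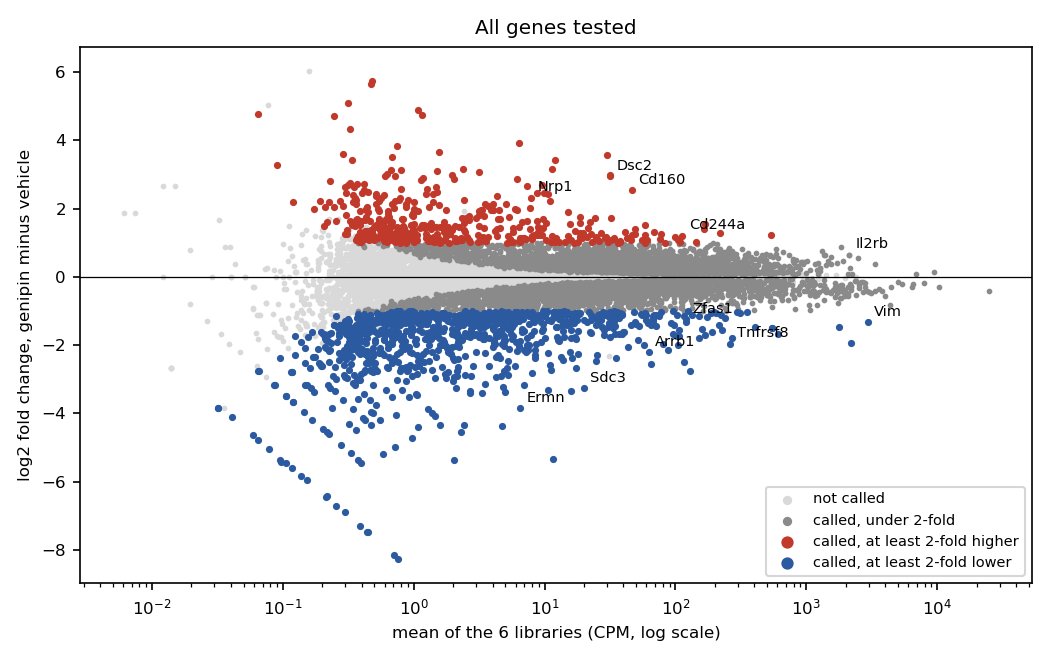
Log2 fold change of genipin minus vehicle (vertical axis) against the mean CPM of the 6 libraries (log axis) for the 13636 genes tested, each point a gene. The 424 genes in red and 912 in blue were called with at least 2-fold change, and the falls reach further from the line of no change than the rises at moderate levels, as for Ermn and Sdc3.

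Lymphoid zinc-finger and Rel homology factors moved upwards together. The Ikaros (IKZF) factors control lymphocyte differentiation, and 4 of 5 rose and 1 fell (median 0.45). Ikzf3, which encodes Aiolos (chr11:98464902-98546031), had 39.1, 38.2 and 39.8 CPM with vehicle and 85.4, 80.4 and 83.7 with genipin (1.09 ± 0.04, adjusted p = 6.8e-15), so each genipin library held more than any vehicle library. Ikzf4 (Eos) rose by 0.64 ± 0.07 and Ikzf5 by 0.45 ± 0.06, whereas Ikzf2 (Helios) fell, from 44.6, 43.4 and 46.1 to 38.01, 34.2 and 33.8 CPM (-0.34 ± 0.05). Of the 9 Rel homology factors tested, which comprise the NF-kappaB and NFAT proteins that carry the signal of the T cell receptor to the nucleus, 8 rose and none fell (median 0.35), none of them by 2-fold. Nfat5 (0.49 ± 0.04), Nfatc1 (0.45 ± 0.04) and Rel (0.45 ± 0.05) had the largest values, and Nfkb2 was not called (0.06 ± 0.05).

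Among factors with low levels under vehicle, several rose by more than 2-fold. Maf, a bZIP factor (chr8:115682942-115707794), had 0.634, 0.25 and 0.536 CPM with vehicle and 3.98, 4.24 and 4.56 CPM with genipin (3.15 ± 0.27, adjusted p = 2.04e-09). Ahr, a receptor factor that binds aromatic ligands, went from 1.48, 1.88 and 2.21 to 8.55, 7.72 and 8.42 CPM (2.14 ± 0.14), and the BTB zinc-finger repressor Hic1 (chr11:75164565-75169519) from 1.44, 1.46 and 1.36 to 7.04, 7.50 and 7.37 CPM (2.36 ± 0.15). The groups lay far apart for all 3 genes, by more than the range within either group. For Ahr, groups without overlap were required by the naming rule. The T-box factors Eomes (0.71 ± 0.04) and Tbx21 (0.69 ± 0.06), which direct the effector programme of CD8 T cells, rose by less. The homeobox factor Hhex rose as well, from 0.253, 0.626 and 0.607 to 1.97, 2.50 and 2.52 CPM (2.21 ± 0.31).

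The clock genes and the nuclear receptors, in contrast, lay on the lower side. Of 17 clock genes tested, 11 fell (64.71%) and 1, Cry2, rose (5.882%), with a median of -0.31. Dbp, a clock output factor, had 9.80, 8.68 and 7.79 CPM with vehicle and 3.33, 3.53 and 3.79 with genipin (-1.29 ± 0.12, adjusted p = 8.17e-09), and Nfil3, its repressing counterpart, had 99.95, 101 and 99.9 and 67.2, 60.9 and 66.5 CPM (-0.63 ± 0.04). Both ran without overlap in the same direction. Per1 fell by 0.31 on the log2 scale, while Per2 (0.13 ± 0.19), Per3 (-0.01 ± 0.18) and Arntl (0.35 ± 0.18) were not called. Of 25 nuclear receptors tested, 12 fell (48%) and 4 rose (16%), against 31% and 29.9% of all genes (median -0.19). The thyroid hormone receptor Thra had 7.65, 8.68 and 8.47 CPM with vehicle and 3.17, 3.13 and 2.95 with genipin (-1.42 ± 0.10, adjusted p = 1.69e-10). Rarg (-1.32 ± 0.08), a retinoic acid receptor, and Vdr (-1.30 ± 0.15), the vitamin D receptor, fell by similar amounts. Rxra, the shared partner of these receptors, rose from 0.211, 0.709 and 0.429 to 2.98, 2.59 and 2.04 CPM (2.48 ± 0.36), and Nr4a3, an orphan receptor induced by T cell receptor signals, rose from 12.2, 13.1 and 10.97 to 27.96, 26.1 and 25.7 CPM (1.14 ± 0.08). With library totals alone in place of TMM factors, the nuclear receptors counted 8 higher and 11 lower.

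Single factors of other families also fell, some by more. The HMG box factors Sox5 (2.49, 2.04 and 2.64 CPM with vehicle, 0.193, 0.313 and 0 with genipin, -3.87 ± 0.42) and Sox12 (2.91, 3.26 and 3.14 and 0.309, 0.714 and 0.219 CPM, -2.95 ± 0.26) were at under 1 CPM in every genipin library. Of the 10 HMG box genes tested 5 fell and 4 rose, and Tox, linked to T cell exhaustion, rose from 0.0422, 0.0835 and 0.143 to 1.51, 1.52 and 1.17 CPM (3.84 ± 0.38). The bZIP factor Batf3 had 69.2, 74.1 and 67.5 CPM with vehicle and 16.6, 15.5 and 18.7 with genipin (-2.05 ± 0.07, adjusted p = 1e-15). It belongs to a dendritic cell list of which 6 of 7 tested members fell and 1 rose, with sums of 115.3 to 120.9 CPM with vehicle and 42.21 to 51.19 with genipin, and with Cd209a, Clec9a and Siglech at 0 in all 6 libraries. The member that rose was Itgax. A macrophage and monocyte list (1 higher, Cd14, and 1 lower, Cd68, of 2 tested) summed to 34.07 to 39.17 CPM with vehicle and 13.81 to 14.42 with genipin, nearly all of it from Cd68 with vehicle, with C1qa, C1qb, Csf1r and Fcgr1 at 0, and the part of either list in these falls was not tested. Zbtb32, a BTB zinc-finger repressor induced in activated lymphocytes, fell from 252, 248 and 249.5 to 122.7, 119.6 and 119.5 CPM (-1.05 ± 0.03). Mycl, a relative of Myc, fell from 2.53, 2.34 and 2.29 to 0.387, 0.268 and 0.401 CPM (-2.73 ± 0.29).

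In the chromatin families, replication histones included, 97 of 188 genes rose (51.6%, against 29.9% of all genes) and 41 fell. Of the 97, 19 were replication histones, which also made up all 17 rises of at least 2-fold. Of 40 SWI/SNF and ISWI remodelling genes, 23 rose and 5 fell (median 0.13), with only 1 of the 40 past 2-fold. Arid1a, a large DNA-binding subunit of the BAF remodeller, had 163, 167 and 163 CPM with vehicle and 240.3, 236 and 245 with genipin (0.55 ± 0.03). Pbrm1, of the PBAF form, rose by 0.47 ± 0.05, and the ATPase Smarca2 by 0.49 ± 0.05. Genes that write or remove DNA methylation were split 10 higher and 5 lower of 19. Tet3, which oxidises methylcytosine, went from 38.4, 43.03 and 43.4 to 83.8, 83.6 and 80.5 CPM (0.99 ± 0.05, adjusted p = 9.72e-14), and the de novo methyltransferase Dnmt3a from 31.1, 28.2 and 29.04 to 52.4, 51.7 and 51.4 CPM (0.82 ± 0.05). Of 26 JmjC and LSD histone demethylase genes 12 rose and 9 fell, Kdm4b (-0.63 ± 0.07) and Kdm5b (-0.56 ± 0.04) among the falls. Of 12 PARP genes 6 rose and 4 fell. The mono-ADP-ribosylating Parp16 (30.4, 29.9 and 29.9 to 10.4, 12.6 and 13.2 CPM, -1.31 ± 0.07) and Parp3 (-0.998 ± 0.06) fell, while Parp14 rose (0.69 ± 0.04).

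Replication histone genes had the highest median of the families, 1.35, with 19 of 31 higher, 17 of them by 2-fold, and 1 lower. Of 69 annotated, 38 were too low to be tested, and all histone genes together made up 0.003847% to 0.004172% of counts with vehicle and 0.005896% to 0.006638% with genipin. Hist1h2bj went from 0.169, 0.334 and 0.321 to 2.55, 1.92 and 1.79 CPM (2.89 ± 0.43), and Hist2h2aa1 was the member that fell (3.84, 3.005 and 3.50 to 0.155, 1.65 and 0.985 CPM, -1.92 ± 0.42). Histone genes are near-identical copies, so reads may be split among them and single members are uncertain.

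RNA-binding proteins of splicing shifted upwards. Of 33 SR and hnRNP proteins, the core regulators of splicing, all were tested, 27 rose (81.82%) and 4 fell (12.12%, median 0.22). Hnrnpd, which also binds AU-rich mRNA ends, had 118, 112 and 111 CPM with vehicle and 181, 184 and 178 with genipin (0.68 ± 0.03, adjusted p = 4.3e-13). Hnrnpm (0.66 ± 0.03) and the splicing activator Srsf1 (0.60 ± 0.04) rose alongside it, and Hnrnpa1 fell from 1420.4, 1392 and 1420.3 to 986, 982 and 974 CPM (-0.53 ± 0.03). Regulators of mRNA decay were split, 16 higher and 9 lower of 37. Zfp36, which triggers decay of cytokine mRNAs with AU-rich ends, fell from 207, 209 and 205 to 95.05, 93.6 and 93.1 CPM (-1.14 ± 0.04), and Zc3h12d, an RNase of activated T cells, fell from 37.4, 38.6 and 39.3 to 17.2, 13.9 and 16.5 CPM (-1.27 ± 0.07). The adenosine deaminase Adarb1 fell (-1.003 ± 0.12).

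**Figure D2:**
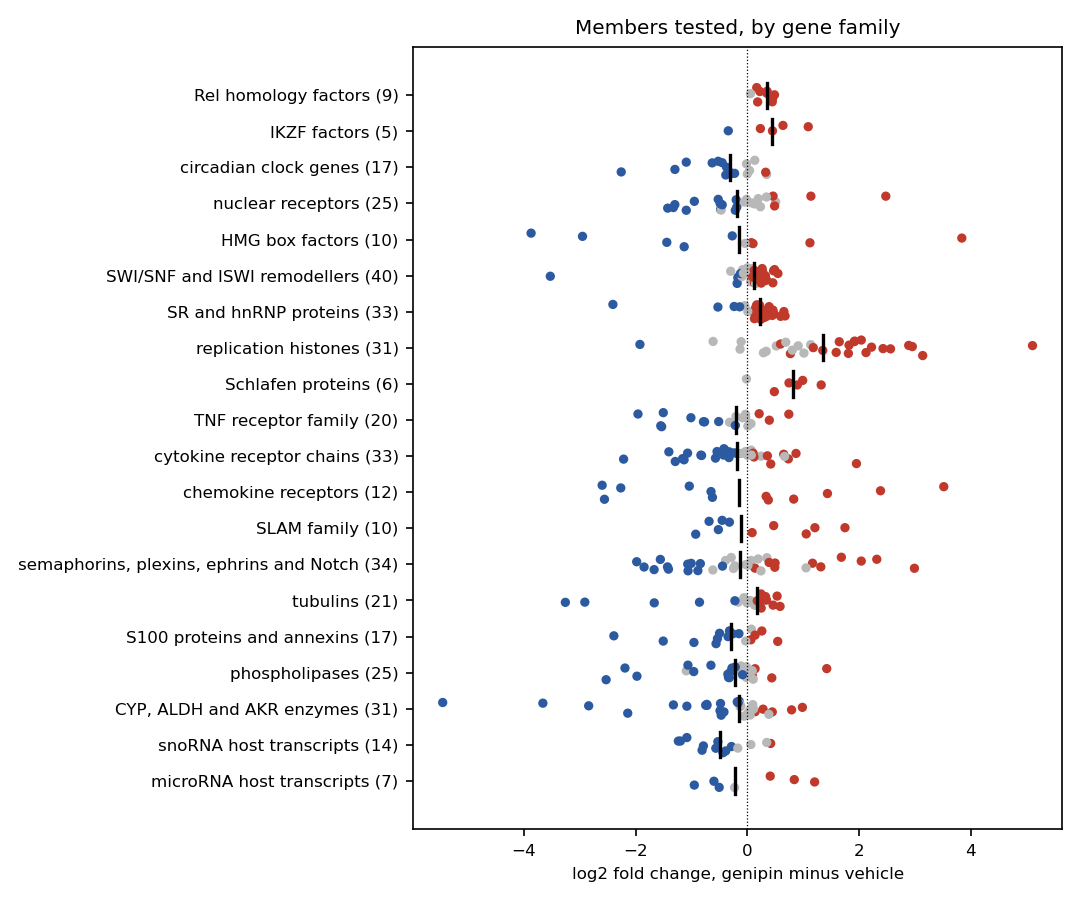
Log2 fold changes (genipin minus vehicle, horizontal axis) of the tested members of 20 families, with the number tested in parentheses. Red points rose, blue points fell, grey points were not called, the black bar is the family median and the dotted line the median of all genes. The bars of the Rel homology, Ikaros, Schlafen, SR and hnRNP and histone families lie to the right of the dotted line, and those of the clock genes, S100 proteins and annexins and snoRNA hosts to the left.

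Schlafen genes, which take part in lymphocyte quiescence and in the handling of tRNA, also rose: 5 of 6 tested were higher and none lower (median 0.82). Slfn2 (chr11:83065112-83070678) had 39.9, 38.2 and 39.8 CPM with vehicle and 99.996, 98.1 and 97.1 with genipin (1.32 ± 0.04, adjusted p = 1.93e-17). Slfn3 (0.99 ± 0.09), Slfn9 (0.90 ± 0.06) and Slfn1 (0.75 ± 0.06) followed, and Slfn5 was not called (-0.01 ± 0.10). The genes of this cluster resemble each other, so the split of reads between them is uncertain.

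Of 593 genes in the surface families, 205 fell and 178 rose, near the shares of all genes. By at least 2-fold, 80 fell and 41 rose. In the TNF receptor family, which delivers costimulatory and death signals, 9 of 20 fell (45%), 5 of them by 2-fold, and 3 rose (15%, median -0.21). Tnfrsf8, which encodes CD30 (chr4:145267137-145315164), had 420.0, 421 and 411 CPM with vehicle and 107, 106 and 109 with genipin (-1.96 ± 0.04, adjusted p = 2.04e-20). Tnfrsf4 (OX40) fell from 40.1, 44.4 and 41.7 to 13.7, 15.6 and 14.00 CPM (-1.55 ± 0.07). Tnfrsf1b, the TNF receptor 2 chain, moved the other way, from 116, 116 and 111 to 193, 187 and 194 CPM (0.74 ± 0.04), and Cd27 was not called (0.01 ± 0.05). The ligand Tnfsf10 (TRAIL) rose from 41.6, 41.9 and 43.4 to 80.7, 80.5 and 80.3 CPM (0.93 ± 0.06).

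On the authors' TPM scale, which corrects for transcript length, Tnfrsf9 (4-1BB) was the highest of the TNF receptors described, at 575 ± 23 TPM (SD, n = 3) with vehicle and 225 ± 4.1 TPM with genipin. Tnfrsf18 followed at 191 ± 7.6 and 125 ± 3 TPM. Tnfrsf8 came next with vehicle, at 141 ± 1.9 TPM, but at 39.9 ± 0.62 TPM with genipin it stood below Tnfrsf1b, which went from 35.9 ± 1.8 to 63.8 ± 1.4 TPM. The order of Tnfrsf8 and Tnfrsf1b was thus opposite in the 2 groups, by far more than their SD. Tnfrsf1b, Tnfrsf18, Cd27 and the IL-2 receptor chains Il2ra and Il2rg were chosen after their values were seen.

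Cytokine receptor chains fell more often than they rose, with 18 of 33 lower, 6 of them by 2-fold, and 8 higher (median -0.18). These were 54.55% and 24.24%, against 31% and 29.9% of all genes. The 3 chains of the IL-2 receptor did not move together. With vehicle, the alpha chain Il2ra stood at 465 ± 12 TPM and the beta chain Il2rb at 452 ± 3.7 TPM, about equal given their SD. With genipin they stood at 273 ± 3.6 and 781 ± 6.7 TPM. In CPM, Il2rb went from 1628, 1666 and 1667 to 2598, 2575 and 2629 (0.65 ± 0.03, adjusted p = 3.92e-14) and Il2ra changed by -0.83 ± 0.03. The common chain Il2rg changed little in the fit on counts (0.10 ± 0.03), and its group means were 316 and 374 TPM. The change was larger on the TPM scale, and the reason was not tested. For IL-18, the ligand-binding chain Il18r1 fell from 150.4, 137 and 138 to 53.98, 56.3 and 50.9 CPM (-1.40 ± 0.05), while its signalling partner Il18rap rose from 91.2, 90.1 and 92.8 to 122, 122 and 122.6 CPM (0.42 ± 0.04), a gene chosen after its values were seen.

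Receptors shared with natural killer cells were among the rises. In the SLAM group, homophilic receptors of lymphocytes and their adaptors, 5 of 10 rose and 5 fell. Cd244a (2B4) had 66.3, 68.4 and 69.5 CPM with vehicle and 159, 163 and 151 with genipin (1.21 ± 0.04), and the adaptor Sh2d1b1 (EAT-2) 8.66, 8.51 and 8.32 and 28.4, 28.7 and 28.6 CPM (1.75 ± 0.09, adjusted p = 4.81e-13). The near-identical Sh2d1b2 also rose (1.06 ± 0.22), and the division of reads between these copies is uncertain. Slamf6, a marker of less differentiated CD8 T cells, fell from 8.15, 9.14 and 7.82 to 4.41, 3.75 and 4.996 CPM (-0.92 ± 0.13). The GPI-anchored or transmembrane receptor Cd160 (chr3:96798763-96829351) went from 12.9, 15.6 and 12.5 to 78.2, 79.6 and 80.7 CPM (2.55 ± 0.07, adjusted p = 7.51e-18), and Pvrig, an inhibitory receptor, from 2.58, 2.38 and 2.36 to 8.28, 8.17 and 8.31 CPM (1.76 ± 0.13). The marker list of natural killer and innate lymphoid cells moved with them: 5 of 7 tested members rose and none fell, and the list summed to 108.8 to 113.3 CPM with vehicle and 207.9 to 220.3 CPM with genipin. Eomes and Fcer1g made up most of that sum, and Gata2 had 0 counts in 5 of the 6 libraries. A mast cell and basophil list (3 of 3 tested higher, Ms4a2 at 0) summed to 27.66 to 31.03 and 63.05 to 63.84 CPM, and the part of either list in these rises was not tested.

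Adhesion and guidance receptors changed strongly in both directions. The desmosomal cadherin gene Dsc2 had 6.42, 7.80 and 7.47 CPM with vehicle and 58.2, 55.01 and 54.4 with genipin (2.95 ± 0.08, adjusted p = 2.46e-17), and its partner Dsg2, chosen after its values were seen, 5.53, 4.84 and 3.97 and 10.5, 8.89 and 9.12 CPM (0.998 ± 0.12). Itga1 (CD49a), an integrin chain that binds collagen, rose from 3.34, 3.21 and 3.46 to 18.9, 17.5 and 17.2 CPM (2.42 ± 0.10), and Nrp1 (chr8:128358604-128503363), a semaphorin and VEGF coreceptor, from 3.21, 2.38 and 2.32 to 13.3, 12.7 and 13.3 CPM (2.32 ± 0.12). Each of these was higher in every genipin library than in any vehicle library, with the smallest difference in Dsg2. The naming rule required this separation of Dsc2, Itga1 and Nrp1, and CPM did not overlap for 66.7% of all genes. Sema6d, chosen after its values were seen, rose from 11.6, 12.4 and 14.6 to 29.6, 27.4 and 30.1 CPM (1.17 ± 0.08). Falling members were Sdc3, a heparan sulfate proteoglycan (chr4:130792537-130826319, 36.04, 35.2 and 37.2 to 3.67, 4.06 and 3.68 CPM, -3.25 ± 0.10), the cadherin Cdh17 (13.7, 14.9 and 13.4 to 2.24, 1.88 and 1.86 CPM, -2.81 ± 0.15), the semaphorin receptor Plxnb2 (-1.98 ± 0.08) and the neurotrophin receptor Ntrk3 (-2.30 ± 0.12). Tetraspanins split: Cd63 (3.63, 3.84 and 4.001 to 15.8, 19.02 and 19.2 CPM, 2.23 ± 0.10) and Cd9 (1.95 ± 0.16) rose, and Cd81 (5.999, 6.80 and 6.82 to 1.59, 2.05 and 1.53 CPM, -1.94 ± 0.14) fell.

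Among 12 chemokine receptors 6 rose and 6 fell, all of them called. Cxcr3, which guides T cells to sites of inflammation, had 10.6, 12.6 and 11.6 CPM with vehicle and 31.5, 30.8 and 32.1 with genipin (1.44 ± 0.07, adjusted p = 2.36e-13). Cxcr4, which retains cells in bone marrow and lymphoid tissue, had 30.9, 29.7 and 28.9 and 6.38, 5.45 and 6.67 CPM (-2.26 ± 0.08). The directions of these receptors were opposite, and in neither case did the groups overlap, which the naming rule required of Cxcr4. Ccr1 fell from 47.3, 44.99 and 46.9 to 22.5, 22.9 and 22.4 CPM (-1.04 ± 0.06). Other G protein-coupled receptors were balanced, 22 higher and 25 lower of 80. The lysophospholipid receptor Gpr55 rose from 11.2, 10.7 and 11.3 to 31.4, 35.5 and 33.9 CPM (1.599 ± 0.08), the adhesion receptor Adgrg1 from 3.72, 3.46 and 3.57 to 11.1, 11.4 and 10.7 (1.63 ± 0.09), and the complement C5a receptors C5ar1 (1.79 ± 0.18) and C5ar2 (2.43 ± 0.28) rose at low levels. Gpr183, a receptor for oxysterols, fell from 50.9, 48.7 and 50.6 to 16.98, 20.5 and 17.98 CPM (-1.44 ± 0.06), and Ltb4r1, the leukotriene B4 receptor, from 96.6, 98.8 and 90.5 to 40.5, 37.8 and 39.1 CPM (-1.28 ± 0.05). Both were chosen after their values were seen.

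Of 88 ion channels tested 11 fell and 4 rose by 2-fold, and of 161 SLC transporters 15 fell and 4 rose, beside 6.69% and 3.11% of all genes. The calcium channel subunit Cacnb3 had 22.8, 23.4 and 23.1 CPM with vehicle and 4.25, 4.60 and 4.08 with genipin (-2.43 ± 0.09). P2rx4, an ATP-gated channel, fell (-1.66 ± 0.14), and the potassium channel Kcnk10 rose (1.67 ± 0.21). Slc35d3 had 3.72, 4.97 and 4.47 CPM with vehicle and 0.232, 0.134 and 0.182 with genipin (-4.53 ± 0.26), and the cationic amino acid transporter Slc7a3 7.31, 7.09 and 8.04 and 1.01, 1.16 and 0.802 CPM (-2.93 ± 0.14).

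**Figure D3:**
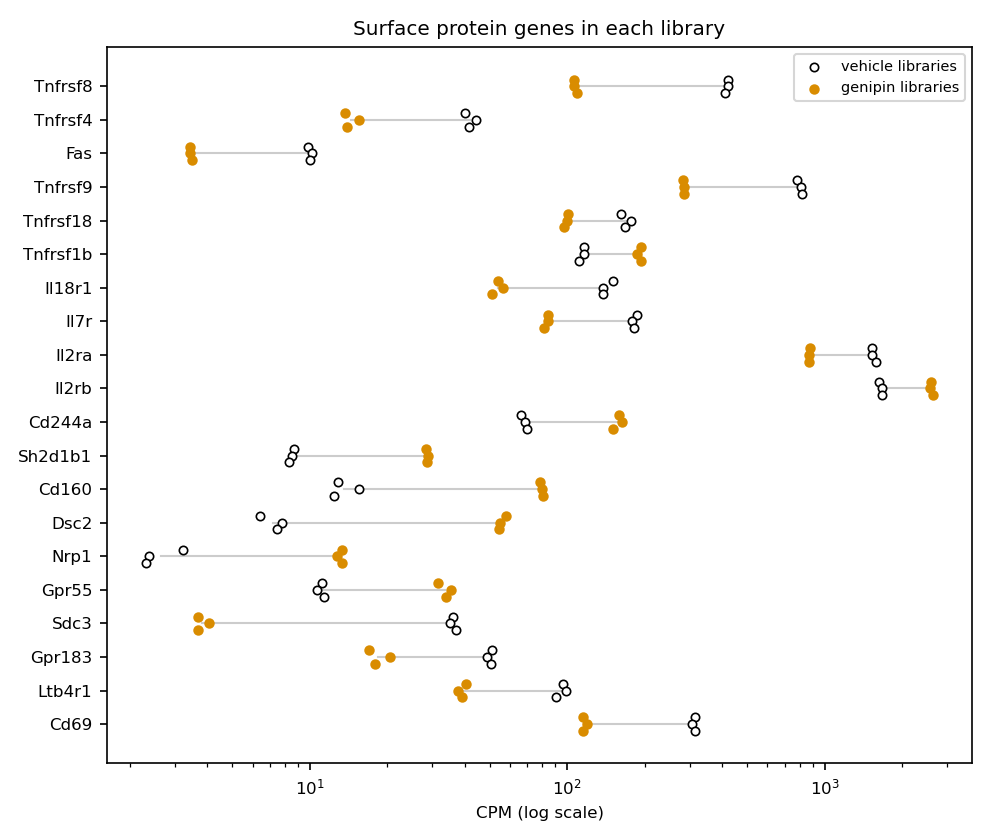
CPM (log axis) of 20 surface protein genes in each library, open points for the 3 vehicle libraries and orange points for the 3 genipin libraries, with a grey line between the group means. In every row the points of the 2 groups are separate, which the naming rule required of some genes. Under genipin, Sdc3, Tnfrsf8 and Tnfrsf4 lie to the left and Cd160, Dsc2 and Nrp1 to the right.

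Of 64 myosin, tubulin and septin genes tested, 26 rose (40.62%) and 15 fell (23.44%), against 29.9% and 31% of all genes. By at least 2-fold, 2 rose and 9 fell. Large falls outside these families were seen in Ermn and Vim. Ermn, which encodes the actin-binding protein ermin (chr2:58045113-58052864), had 11.6, 12.8 and 12.2 CPM with vehicle and 0.657, 1.07 and 0.839 with genipin (-3.84 ± 0.18, adjusted p = 1.38e-13), and Vim, the intermediate filament vimentin, 4154, 4291 and 4175 and 1655, 1673 and 1697 CPM (-1.33 ± 0.03). The groups lay apart for both, which the naming rule required of Ermn. Of 31 myosins 10 rose and 9 fell, and by 2-fold 1 rose and 6 fell. That rise was Myh10, from 3.04, 3.17 and 3.72 to 10.4, 10.4 and 9.85 CPM (1.62 ± 0.11). Among tubulins, 11 of 21 rose and 5 fell, with Tuba1b at 0.59 ± 0.03 and Tubb2b at -3.26 ± 0.23. Of 17 S100 proteins and annexins, calcium-binding proteins at membranes, 11 fell and 4 rose (median -0.30), with Anxa3 at 8.15, 7.34 and 7.61 and 1.62, 1.43 and 1.35 CPM (-2.39 ± 0.13) and Anxa2 at -0.56 ± 0.03.

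Among signalling proteins, the large changes sat in single genes. Arrb1, the receptor-desensitising beta-arrestin 1 (chr7:99535466-99606771), had 98.7, 105 and 106 CPM with vehicle and 23.1, 23.2 and 21.3 with genipin (-2.20 ± 0.04, adjusted p = 8.89e-20). Rgs11, a regulator of G protein signalling, fell from 13.7, 15.4 and 13.6 to 2.63, 2.50 and 2.95 CPM (-2.39 ± 0.12). Of 30 protein tyrosine phosphatases 13 rose and 14 fell, 3 of them by 2-fold. Ptpn6 (SHP-1), which limits antigen receptor signals, rose from 131, 131 and 129 to 254, 262 and 257 CPM (0.99 ± 0.03). Of 68 kinases and phosphatases of diacylglycerol and phosphoinositides 30 rose and 14 fell. Inpp4b, a lipid phosphatase that limits PI3 kinase signals, rose from 142, 141 and 138 to 278, 278 and 271 CPM (0.98 ± 0.04). The PI3 kinase inhibitor Pik3ip1 fell from 79.7, 77.8 and 80.7 to 41.2, 40.99 and 40.2 CPM (-0.96 ± 0.04). Of 8 suppressors of cytokine signalling 4 rose and 1 fell: Cish had 368, 381 and 381 and 591, 601 and 616 CPM (0.68 ± 0.04), and Socs3 47.4, 46.5 and 42.04 and 22.2, 23.9 and 22.8 CPM (-0.98 ± 0.06). Castor1, the arginine sensor of the mTORC1 pathway, fell from 17.6, 18.9 and 20.1 to 3.25, 3.17 and 3.03 CPM (-2.58 ± 0.09).

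Secreted factors and lipid enzymes were also affected. The cytokine Il24 had 28.4, 31.1 and 30.1 CPM with vehicle and 5.22, 4.24 and 4.59 with genipin (-2.67 ± 0.08, adjusted p = 2.48e-17). The chemokine Ccl3 had 9.08, 9.26 and 9.72 and 29.3, 26.7 and 27.5 CPM (1.57 ± 0.09). Both were named by a rule that required groups without overlap. Phospholipases fell in 13 of 25 cases (52%) and rose in 4 (16%, median -0.21). CYP, ALDH and AKR enzymes fell in 16 of 31 (51.61%) and rose in 5 (16.13%, median -0.14). Plcb2 fell from 78.2, 79.4 and 81.1 to 38.4, 37.6 and 38.3 CPM (-1.06 ± 0.04), and the steroidogenic enzyme Cyp11a1 from 13.8, 13.5 and 13.9 to 3.05, 3.48 and 2.84 CPM (-2.14 ± 0.09). Hpgds, which makes prostaglandin D2, rose from 3.13, 2.96 and 2.96 to 18.2, 16.6 and 15.1 CPM (2.46 ± 0.11), and the cytosolic carbonic anhydrase Car2 from 1.86, 2.13 and 1.96 to 12.4, 13.1 and 12.2 CPM (2.66 ± 0.12). Tg, which encodes thyroglobulin, fell from 43.3, 41.8 and 40.9 to 9.63, 9.15 and 7.26 CPM (-2.28 ± 0.08), and Serpinc1, which encodes antithrombin, from 9.12, 10.02 and 8.29 to 0.967, 0.938 and 0.729 CPM (-3.38 ± 0.15).

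Among noncoding RNAs, falls prevailed in the host transcripts of small nucleolar RNAs, whose introns release the guides of ribosomal RNA modification. Of 14 tested, 10 fell (71.43%) and 1, Snhg20, rose (7.143%), against 31% and 29.9% of all genes (median -0.48). Zfas1 (chr2:167062934-167065862) had 166, 167 and 171 CPM with vehicle and 72.2, 71.5 and 70.8 with genipin (-1.23 ± 0.04, adjusted p = 6.81e-17). Gas5 (chr1:161034422-161038539) had 284, 289.6 and 283 and 161, 166 and 162 CPM (-0.81 ± 0.03), and Snhg5 (chr9:88521050-88522929) 51.8, 51.9 and 51.2 and 23.8, 25.9 and 23.6 CPM (-1.08 ± 0.06). For each of them every genipin library lay below every vehicle library. Epb41l4aos fell by 1.20 on the log2 scale. The share of counts from ribosomal protein genes, given above, was lower with genipin too, and its part in this fall was not tested. The small nucleolar RNAs themselves could not be read: none of 150 annotated genes passed the filter, and 120 had no count in any of the 6 libraries.

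Nuclear long noncoding RNAs moved less. Xist, which coats the inactive X chromosome, had 525, 519 and 519 CPM with vehicle and 696, 681 and 666 with genipin (0.39 ± 0.04, adjusted p = 4.54e-09), and Tug1 67.5, 60.8 and 70.8 and 105, 108 and 99.5 CPM (0.64 ± 0.05). Firre, another X-linked nuclear RNA, fell from 36.96, 37.4 and 32.6 to 21.9, 20.9 and 19.5 CPM (-0.78 ± 0.07). Malat1 was not called (0.06 ± 0.06) and Neat1, which scaffolds paraspeckles, changed by -0.11 ± 0.04. The p53-induced Trp53cor1 fell (-0.78 ± 0.11). Xist, Malat1 and Neat1 were chosen after their values were seen.

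Larger changes sat in noncoding genes without an assigned role. 2410006H16Rik, a processed transcript (chr11:62602877-62604807), had 231, 236 and 232 CPM with vehicle and 61.9, 69.2 and 72.4 with genipin (-1.78 ± 0.04, adjusted p = 1.16e-18). Gm36723, a lincRNA (chr12:25303940-25471979), had 25.5, 25.96 and 28.01 and 71.7, 72.2 and 68.5 CPM (1.42 ± 0.05), and the lincRNA Gm43042 (chr5:59569702-59574242) 1.48, 2.34 and 1.71 and 7.50, 7.05 and 6.89 CPM (1.96 ± 0.17). The antisense gene Gm13546 (chr2:58164001-58177063) fell from 10.3, 8.97 and 11.5 to 1.66, 1.65 and 1.68 CPM (-2.62 ± 0.15). These 4 were far outside the spread of replicates, 2 in each direction. Coordinates are on mm10 with GENCODE M21 models, and since the sources used here do not state whether strand was used in counting, reads of an antisense gene and its partner cannot be told apart. Over all 734 long noncoding genes tested, 170 rose and 128 fell, a lower share of calls than among all genes. By at least 2-fold 60 rose and 64 fell, a higher share than the 3.11% and 6.69% of all genes.

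**Figure D4:**
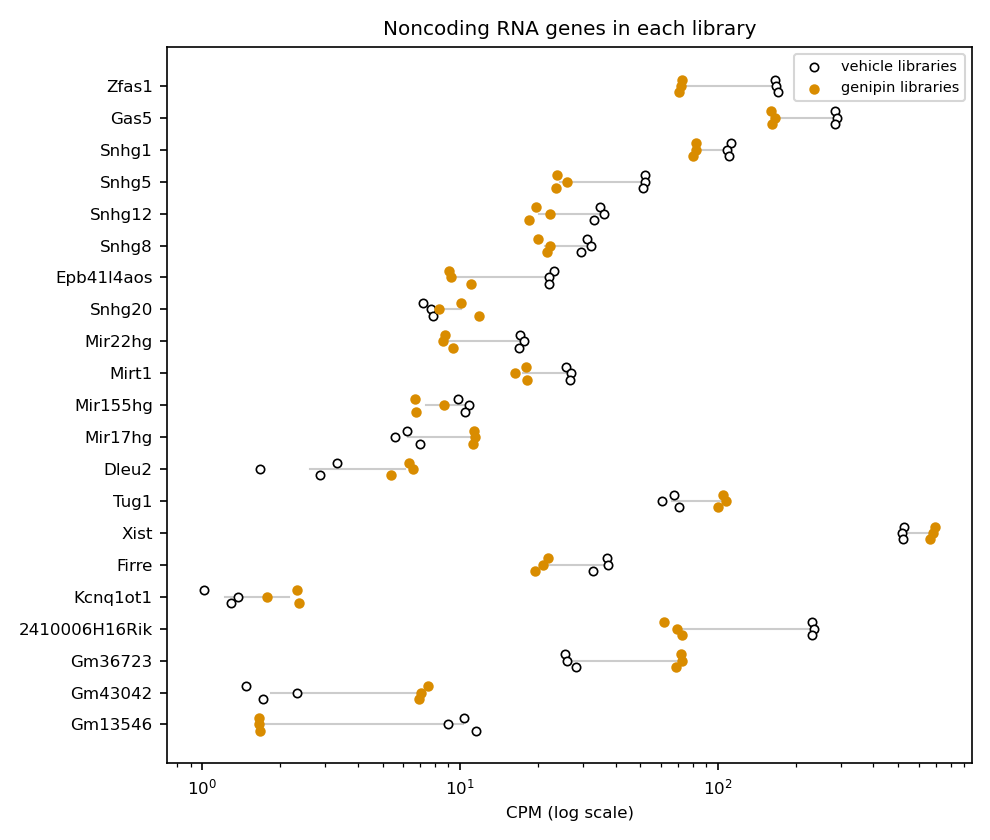
CPM (log axis) of 21 noncoding genes in each library, open points for vehicle and orange points for genipin, with a grey line between the group means. Zfas1, Gas5, Snhg5 and Mir22hg lie to the left under genipin, and Mir17hg, Dleu2, Tug1, Xist and Gm36723 to the right.

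A few genes were close to absent in one of the groups, and for these the counts are given without a fold. Dtx1, a ubiquitin ligase of the Notch pathway, had 3, 2 and 1 counts in the vehicle libraries and 60, 54 and 55 in the genipin libraries. Ncr1, the natural killer receptor NKp46 and a member of the marker list above, had 1, 2 and 2 and then 61, 36 and 64. Apol9b had 0, 0 and 1 and then 22, 25 and 22, but resembles other Apol genes, so its reads are uncertain. On the other side, Slc1a2, a glutamate transporter, had 31, 36 and 39 counts with vehicle and 0 in each genipin library. The complement component C3 had 43, 50 and 48 and then 1, 3 and 1, and Guca1a, an activator of guanylate cyclase, 28, 42 and 35 and then 2 in each. H2-Q1, a class I gene with close copies, had 36, 27 and 43 and then 0, 1 and 2. A count of 0 allows a level of up to 3 counts in a library, counting error only.

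The mean transcript length that the authors estimated per gene changed for few genes, 108 of 8980 tested (1.2%) by limma, 66 longer (0.735%) and 42 shorter (0.468%). This value weights the annotated transcripts of a gene by their estimated abundance, so it moves when the mix of transcripts moves. Ahnak, a giant scaffold protein with transcripts of 830 to 18100 bases, had a mean of 11099.2 ± 402.9 bases (SD, n = 3) with vehicle and 15672.1 ± 252.6 with genipin (log2 ratio 0.50 ± 0.03 SE, adjusted p = 6.803e-05). Zfp672 went from 871.2 ± 14.6 to 1188.8 ± 35 bases (0.45 ± 0.04, adjusted p = 0.002118). Asap1 shortened from 3267.7 ± 326.9 to 2265.0 ± 158.1 bases (-0.53 ± 0.09), and Mir22hg from 1555.6 ± 34.1 to 1304.0 ± 72.2 (-0.26 ± 0.04). These counts rest on every library: leaving out vehicle library 1, 2 or 3 left 59, 54 or 49 genes, and leaving out genipin library 1, 2 or 3 left 60, 64 or 63. With only the 6 libraries compared in the fit 7 genes were called, Ahnak (adjusted p = 0.03049) and Zfp672 (0.02614) among them, and Asap1 and Mir22hg were not.

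Promoter windows of 300 bases around the start sites, from RefSeq, described the genes that changed by 2-fold. Windows were found for 250 of the 424 genes that rose (310 windows) and 660 of the 912 that fell (866 windows). Median GC content was 60.7% over the 12542 windows of all genes tested, 56.2% for those that rose and 59.3% for those that fell. The letters GGGCGG, searched on both strands like the rest, were present in 61.5% of all windows, in 41.9% of those of rising genes and in 56.7% of those of falling genes. CCGGAAGT was present in 8.19%, 1.94% and 2.08%, and TGACGTCA in 3.08%, 0.323% and 1.39%. CCAAT differed less, at 37.9%, 35.2% and 34.4%. The sets differ in GC content, so these shares describe the windows and no binding.

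The same agent was also compared in cells given NAC, in 6 libraries that share none with the comparison above. Replicate 1 of genipin with NAC stood apart from its replicates, at a chi-square per degree of freedom of 6.77 and 7.75 against 2.08 between the others. There, 7239 genes (53.1%) were called, 26.6% higher and 26.5% lower. Of the 424 genes that rose by 2-fold without NAC, 187 (44.1%) also rose with NAC, 40 (9.434%) fell and 197 were not called, with a median log2 fold change of 0.66. Of the 912 that fell, 395 (43.31%) also fell, 121 (13.27%) rose and 396 were not called, with a median of -0.32. The test of the difference between the effects, the interaction, was called for 201 of the 424 rising and 677 of the 912 falling genes. The share of all genes was 51.4%, above that of the rising genes and below that of the falling genes. The rising and falling genes were chosen by a difference that also enters the interaction, so the counts are not independent of that choice. Without replicate 1 of genipin with NAC, 177 and 374 genes were called in the same direction, and 33 and 118 were called in the opposite direction.

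For some genes the interaction was not called. Dsc2 rose by 2.71 with NAC (interaction adjusted p = 0.427), Itga1 by 2.30 (0.608) and Pvrig by 2.21 (0.114), while Il24 changed by -2.59 (0.552). An interaction that was not called does not show that the effects were equal. Other rises were larger with NAC: Sh2d1b1 at 3.07 (interaction adjusted p = 6.62e-06), Cd244a at 1.78 (5.09e-08) and Gm36723 at 2.20 (3.82e-07). Others were not called with NAC while the interaction was: Maf (-0.32), Ahr (-0.24), Gpr55 (0.13), Cxcr3 (0.07), Tnfrsf4 (0.03), Zbtb32 (-0.02), Zfas1 (0.06) and 2410006H16Rik (-0.01). Genes with opposite calls included Hic1, which fell with NAC (-1.18, interaction adjusted p = 2.97e-12), and Il18r1 (0.45, 7.18e-16), Parp16 (0.55, 4.28e-13) and Ccr1 (1.598, 3.7e-15), which rose. Of the microRNA hosts, Dleu2 was not called with NAC (0.15, interaction adjusted p = 0.000713), and the other 3 had opposite calls: Mir22hg was at 0.50 (9.4e-11), Mir155hg at 0.45 (8.28e-05) and Mir17hg at -0.48 (8.63e-07). Each of the calls named in this paragraph was the same without replicate 1 of genipin with NAC.

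**Figure D5:**
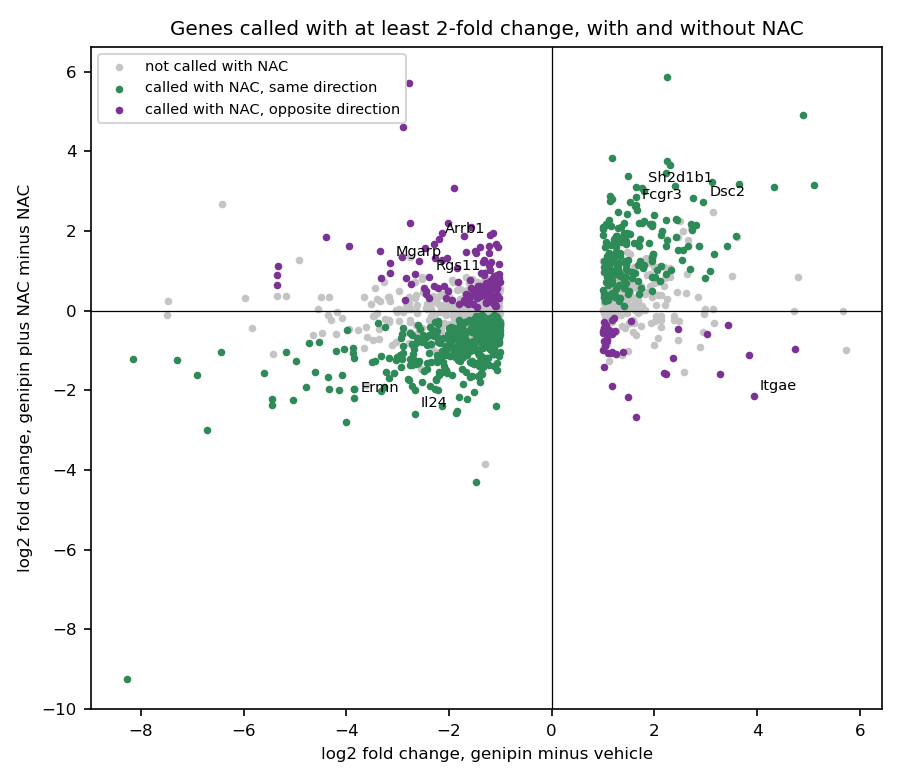
Log2 fold change of genipin without NAC (horizontal axis) against that with NAC (vertical axis) for the 1336 genes called with at least 2-fold change without NAC. Green points were called in the same direction with NAC (187 and 395), purple points in the opposite direction (40 and 121) and grey points were not called with NAC, and Dsc2 and Il24 lie near the diagonal while Arrb1 and Rgs11 lie on the opposite side.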

How the data were processed

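RNA was sequenced from a stranded total RNA kit with ribosomal RNA removal. The authors deposited expected counts, TPM and a mean transcript length per gene for each library, and the submitters' processing notes name cutadapt 1.18, STAR 2.7.0f, RSEM 1.3.1 and mm10. The deposited expected counts are RSEM's estimates of reads per gene, not normalised. The deposited TPM values are the authors' counts scaled by transcript length and depth. They were used to compare levels between genes and to give levels of some genes in each group, without a test. The strand setting of counting is not given in the sources used here.

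Expected counts were rounded and all 12 libraries were fitted with edgeR 4.0.16 (R 4.3.3), with TMM factors (0.961 to 1.05), a filter on low counts that kept 13636 of 55450 genes, the quasi-likelihood test and Benjamini-Hochberg adjustment over all genes tested. The 12 libraries share an estimate of the spread, with 8 residual degrees of freedom. A gene was called at an adjusted p under 0.05. Lengths (log2) were tested with limma 3.58.1 for genes with a mean of at least 5 CPM. Families were defined by gene symbol and described by counts and medians, without a test. The fit was tested on simulated data.

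Genes were named by rule: the 30 largest rises and falls with at least 5 CPM and no overlap, up to 4 members per family, the 12 largest rises and falls of long noncoding RNAs, genes with at most 3 counts in each library of a group and at least 20 in each of the other, and the largest length changes. Nr4a3, Tox, Nfkb2, Slfn5, Per2, Per3, Arntl and the genes so marked in the text were added after their values were seen. Members and lists were chosen with earlier results of these data known. The alternatives tried comprise other normalisations, filters, tools, fits and left-out replicates. FPKM values were not used. Some results are not reported here.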

Additional observations from a re-analysis of the deposited data

Results flagged for a closer look

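Of the 60 genes named for the largest rises and falls, 53 had an interaction called by edgeR's test, against 51.4% of all genes. The 60 were chosen by their difference without NAC, which also enters the interaction, so the choice itself favours such calls. For 11 of them the calls were in opposite directions, and 10 are given here. With NAC, the log2 fold changes of genes that rose without it were -2.16 for Itgae, -0.46 for Hpgds and -0.37 for Asb2. Those of genes that fell without NAC were 0.31 for H2-Ab1, 0.50 for Vegfa, 0.57 for Aldoc, 0.81 for Me1, 0.85 for Rgs11, 1.20 for Mgarp and 1.79 for Arrb1. All 11 kept their call and direction without replicate 1 of genipin with NAC, the library that stood apart.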

How the results depend on the processing

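The count of genes called lay between 6922 and 8555 under the other settings, apart from a test against a 1.5-fold change, which called 1473 (517 higher, 956 lower). Among genes with a mean of at least 5 CPM, 6928 were called, and 443 of them with at least 2-fold change (103 higher, 340 lower). Of these 443, 433 were among the reported 1336. Most of the reported 2-fold genes were thus outside that set, which leaves out genes of lower level. The 2-fold genes shared with the reported 1336 were 1267 of 1275 with DESeq2 and 1301 of 1350 with limma-voom. Without normalisation factors the median of all genes was 0.06 in place of -0.01 and calls split 4871 higher and 3550 lower. A family median counted as moved if it shifted by at least its SD over the 3 genipin libraries. Without the factors 58 family medians moved and 13 did not, and with the 5 CPM filter 32 moved and 39 did not. With DESeq2 2 moved and 69 did not. Without the factors the SWI/SNF and ISWI median was 0.19 (reported 0.13). That of CYP, ALDH and AKR enzymes was -0.08 (reported -0.14). With offsets from effective lengths, Runx1 was at 0.20 (adjusted p = 0.4114) and Sept9 at -0.032 (0.3863), opposite to the reported fit, and the cause was not tested. The count of length changes, 108, was 7 with only the 6 libraries, 36 at an adjusted p under 0.01, 71 with the replicate block and 49 to 64 with a library left out. With the replicate block in edgeR 8246 genes were called, and 1 named gene, Plch1, was no longer called (adjusted p = 0.06551). Same-numbered libraries of the 2 groups had correlated deviations of -0.0158, 0.0369 and 0.0437 over all genes tested and of 0.0674, 0.255 and 0.131 over genes with at least 5 CPM. Not every pair exceeded 0.1 in either set, and the best match had the same number for 4 of 6 libraries, so the numbers were not taken as a pairing.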

Other observations

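Other kinds of transcripts differed in how many were called. Of 496 processed pseudogenes tested, 110 fell (22.18%) and 27 rose (5.444%), both below the 31% and 29.9% of all genes. These copies resemble their parent genes, so their reads are uncertain. Of 24 sense intronic transcripts 10 rose (41.67%) and none fell. Of 210 genes of the TEC class, whose existence is still to be shown by experiment, 57 rose (27.14%) and 10 fell (4.762%). The TEC share that rose was thus near that of all genes, and the share that fell was lower. For comparison, 3784 of 11958 protein-coding genes rose (31.64%) and 3935 fell (32.91%).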
